A study of Homo sapiens with 4 samples.

Results

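The genes described here are 10 that other systems have reported as raised by mutant p53: MYC, TERT, ABCB1, ID4, ARHGEF2, AXL, ENTPD5, KMT2A, KMT2D and KAT6A. They were taken as a list of names, and each was read on every probe set annotated to that gene alone. Of the 10 genes, 9 had such a probe set, 37 probe sets in all, among 19775 genes measured on the array. ARHGEF2, which encodes the guanine nucleotide exchange factor GEF-H1, had none and was not analysed here.

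RNA abundance was measured on 4 Affymetrix arrays, 1 per group, in SK-BR-3 cells, an established line from a human breast tumour in which HER2 is amplified and p53 carries a missense mutation. The groups were p53 shRNA with Pontin siRNA, p53 shRNA with the control siRNA arm, Pontin siRNA with control shRNA, and control shRNA with the control siRNA arm. The shRNA cells were puromycin-selected populations, the labels call the shRNA control both a control shRNA and an empty vector, and the control siRNA arm is named only sicon. RNA was taken 24 h after siRNA transfection, with 200 ng labelled per array, and no group had a second array. Each knockdown is given in 2 matched pairs that share no array with each other, as values without a test. A p53 shRNA pair and a Pontin siRNA pair always share 1 array. An additive fit over the 4 arrays is given among the alternatives. Its error for a gene combines how far the 2 pairs differ with a value borrowed from all genes. The transcript targeted by the p53 shRNA was not analysed here, so the depth of that knockdown is not known from these values.

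Mutant p53 proteins that have lost sequence-specific DNA binding are reported to reach promoters through other transcription factors, among them ETS2, Sp1, NF-Y and SREBP, and to raise genes of growth, metabolism and chromatin modification. Pontin, the AAA+ ATPase encoded by RUVBL1, works in chromatin remodelling and protein assembly complexes, is part of MYC-containing and telomerase-containing complexes, and the design sets its loss beside that of mutant p53. A gene that depends on mutant p53 would be lower in p53 shRNA cells than in control shRNA cells.

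The siRNA target RUVBL1 had signals of 65.8 with both knockdowns against 398.2 with p53 shRNA, and 127.4 with Pontin siRNA against 477.7 with control shRNA. The middle probe set signal was 19.6 on the array with both knockdowns and 15.9 to 16.5 on the others. Log2 signals of genes above the filter correlated at 0.981 to 0.988 between arrays. All 6 luminal and HER2 markers were well measured, with summed signals of 40467 under both knockdowns, 36301 under p53 shRNA, 35488 under Pontin siRNA and 34680 under control shRNA. Of 8 stromal, immune and endothelial markers measured, 3 passed the filter, with summed signals of all 8 between 291.4 and 374.0 over the arrays. The stromal collagen gene COL1A1 was bright, at 174.5, 152.9, 175.9 and 162.0 in the same order of arrays. The endothelial cadherin gene CDH5 was at 105.8, 87.1, 68.5 and 67.9, higher in both p53 shRNA arrays than in both others. PECAM1, a further endothelial gene above the filter, was at 40.7, 37.6, 27.5 and 33, again higher in both p53 shRNA arrays. The immune marker gene CD3E, under the filter, was at 25.3, 11.1, 5.1 and 14.2, highest on the array with both knockdowns. PECAM1 and CD3E were added with their signals already known. COL3A1, a second stromal collagen gene, was between 0.9 and 6.4, and PTPRC, which encodes the leukocyte marker CD45, between 3.7 and 8.3, a pair chosen after its values were seen. The part of such cells in the members' ratios was not tested.

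The promoters of 4 members are shown because the reported routes of mutant p53 to these genes run through factors with short recognition motifs: ETS2 for KMT2A and KMT2D, and Sp1 for ENTPD5. ID4 is added as the member with the largest Pontin siRNA ratio above the filter. Each is the 250 bases upstream of the RefSeq start site on build GRCh38.p14, 5′ to 3′ on the gene's strand: chr11:118436242-118436491 on the plus strand for KMT2A, chr12:49060795-49061044 on the minus strand for KMT2D, chr14:74019289-74019538 on the minus strand for ENTPD5 and chr6:19837120-19837369 on the plus strand for ID4. Capitals mark matches on either strand to the Sp1 motif GGGCGG, the NF-Y motif CCAAT, the ETS core CGGAA, the E-box CACGTG bound by MYC and MAX, and the TATA motif TATAAA.
KMT2A: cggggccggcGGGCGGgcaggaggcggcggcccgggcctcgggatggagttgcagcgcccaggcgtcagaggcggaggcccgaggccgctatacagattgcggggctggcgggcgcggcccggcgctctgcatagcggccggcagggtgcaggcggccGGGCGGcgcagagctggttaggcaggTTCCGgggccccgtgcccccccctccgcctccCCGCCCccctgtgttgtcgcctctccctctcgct
KMT2D: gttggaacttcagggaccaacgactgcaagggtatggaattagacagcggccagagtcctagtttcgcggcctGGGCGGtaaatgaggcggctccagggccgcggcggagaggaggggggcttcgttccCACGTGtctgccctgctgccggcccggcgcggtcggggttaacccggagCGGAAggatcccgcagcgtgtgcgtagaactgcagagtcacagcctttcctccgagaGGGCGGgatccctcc
ENTPD5: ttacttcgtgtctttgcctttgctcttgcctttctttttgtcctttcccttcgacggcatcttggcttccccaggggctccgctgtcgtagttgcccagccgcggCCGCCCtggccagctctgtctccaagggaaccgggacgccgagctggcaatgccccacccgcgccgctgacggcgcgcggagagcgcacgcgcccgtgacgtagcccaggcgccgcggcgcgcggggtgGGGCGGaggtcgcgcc
ID4: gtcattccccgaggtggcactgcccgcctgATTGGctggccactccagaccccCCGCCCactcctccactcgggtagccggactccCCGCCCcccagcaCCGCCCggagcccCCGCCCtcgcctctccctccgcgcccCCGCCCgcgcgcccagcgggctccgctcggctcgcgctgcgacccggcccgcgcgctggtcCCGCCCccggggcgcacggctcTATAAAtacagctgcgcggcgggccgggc
KMT2A held 3 Sp1 motifs and 1 ETS core, KMT2D 2 Sp1 motifs, 1 ETS core and 1 E-box, ENTPD5 2 Sp1 motifs, and ID4 6 Sp1 motifs, 1 NF-Y motif and 1 TATA motif. No matches overlapped. Of 35116 RefSeq promoters of this length, 42.6% held the Sp1 motif, 32.0% the NF-Y motif, 30.3% the ETS core, 6.34% the E-box and 10.7% the TATA motif. GC content was 78.4% for KMT2A, 65.6% for KMT2D, 69.6% for ENTPD5 and 78.8% for ID4, against a median of 58% over all promoters. The shares are thus not of promoters with like GC content. These are matches of letters and say nothing of binding in SK-BR-3 cells.

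None of the 6 members above the filter for low signals passed the call rule for either knockdown on its brightest probe set. A gene was called where both pairs differed at least 1.5-fold, 0.58 in log2, with the same sign. Of the 9 measured members, 6 passed the filter, a mean signal of at least 15.3 (the median probe set): MYC, KAT6A, KMT2A, KMT2D, ENTPD5 and ID4. TERT, ABCB1 and AXL did not, so under the filter they could not be called. The first 5 were also bright, with at least 110.3, the upper quartile of probe sets. For p53 shRNA, 0 of 6 members were called lower and 0 higher, where 0.862% of the 12066 genes above the filter were called lower and 1.38% higher. For Pontin siRNA, 0 of 6 were called lower and 0 higher, where 1.24% of all genes were lower and 1.16% higher. At these shares a count of 0 among 6 genes is near the background and is not a result about the members. In RNA from a whole culture, fewer cells with a transcript and less of it per cell cannot be told apart.

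The median of the 6 mean p53 shRNA log2 ratios was -0.02, against -0.002 over all genes above the filter. Of the 6, 4 were below 0, where 6097 of all 12066 genes were. None of the 6 was below 0 in both p53 pairs and none was above 0 in both. For Pontin siRNA the median was 0.12 against 0.01 over all genes, with 4 of 6 above 0, 3 of them in both pairs, and 2 below 0 in both. Of all 12066 genes, 6245 had a mean Pontin siRNA ratio above 0. The medians turned sign under some settings: with the mean over probe sets the p53 shRNA median was 0.13, over the 5 members then above the filter, without ID4, and after centring each array on its median the Pontin siRNA median was -0.04, with that of all genes at -0.16. As a gauge of spread, 95% of bright named probe sets had p53 shRNA log2 ratios between -0.43 and 0.46 in the first pair and between -0.47 and 0.45 in the second. The Pontin siRNA ranges were -0.49 to 0.45 on the control shRNA background and -0.65 to 0.52 on the p53 shRNA background. Of the 6 bright member probe sets, 6 lay inside the range for the first p53 pair and 4 for the second, with ENTPD5 226594_at and KMT2D 227527_at outside. For Pontin siRNA, 5 lay inside in the first pair, with ENTPD5 226594_at outside, and 6 in the second. Both ENTPD5 ratios that lay outside use the array with Pontin siRNA alone.

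**Figure D1:**
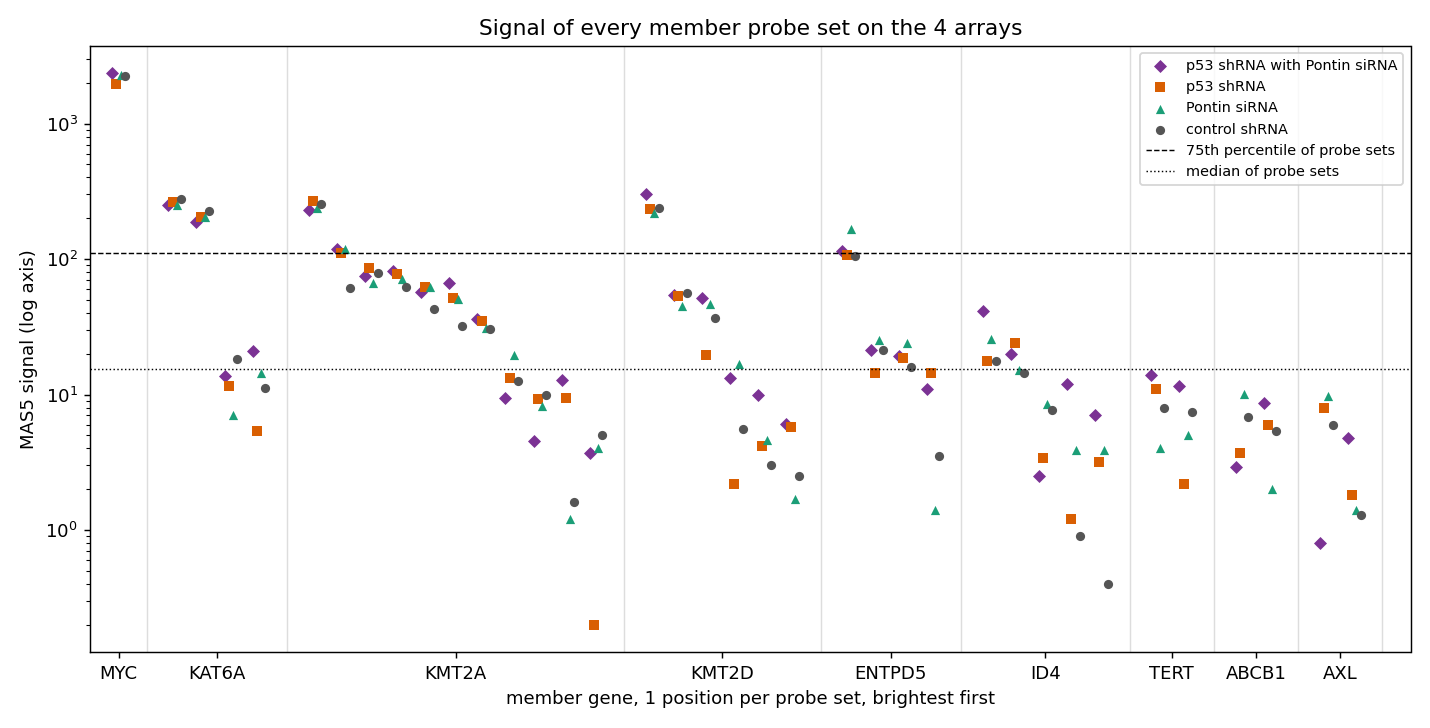
MAS5 signal (log axis) of all 37 member probe sets, 1 position per probe set and 1 point per array. MYC, KAT6A, KMT2A, KMT2D and ENTPD5 each had a probe set above the 75th percentile line at 110.3, while every TERT, ABCB1 and AXL probe set lay under the median of 15.3, where points of the 4 arrays scatter most.

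MYC, the transcription factor gene of growth and ribosome synthesis, was well measured and nearly level across the 4 arrays. Its single probe set had signals of 1966 with p53 shRNA against 2255 with control shRNA, and 2341 with both knockdowns against 2283 with Pontin siRNA. The p53 shRNA log2 ratios were -0.20 and 0.04, of opposite sign, and both lay inside the central 95% of bright probe sets. The Pontin siRNA log2 ratios were 0.02 without and 0.25 with p53 shRNA. The highest array was 1.19-fold above the lowest, where the median bright probe set spanned 1.23-fold. The MYC probe set is of a type shared between transcripts, so MYC could not be checked after such types were left out.

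The MYC partner network held the only gene called for p53 shRNA among all partner lists, MXD1, a MAX-binding repressor that opposes MYC. The lists held 139 genes above the filter, and 2.25% of all genes above it were called, so 1 call does not exceed that background. MXD1 had signals of 179.5 with p53 shRNA against 118.4 with control shRNA, and 196.1 with both knockdowns against 128.8 with Pontin siRNA. Both p53 shRNA arrays lay above both of the others. The fold changes were 1.516 and 1.523, just past the threshold, and the call was lost after median centring, with a pseudocount of 16, with a 2-fold threshold, or once probe sets of a gene were averaged. A further bright MXD1 probe set gave log2 ratios of 0.30 and 0.24. Of 12 network genes above the filter, MXD1 was 1 called higher and 0 were called lower, with a median log2 ratio of -0.03. MAX, the obligate partner of MYC, was at 0.08 and -0.14, and MLX, a MAX-like factor, at -0.18 and -0.26. With Pontin siRNA 0 of the 12 were called and the median was 0.06.

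Of 12 genes that MYC is known to activate, 0 were called for p53 shRNA, with a median of -0.06, and 0 for Pontin siRNA, with a median of 0.03. The transferrin receptor gene TFRC was at 0.08 and 0.14 with p53 shRNA and, with Pontin siRNA, at -0.02 and 0.03. The lactate dehydrogenase gene LDHA was at 0.09 and 0.27 and at -0.05 and 0.14. All of the 12 were bright.

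The chromatin members each had a bright probe set, but with 1 array per group the matched pairs give no test of whether small ratios differ from 0. KAT6A encodes the MOZ histone acetyltransferase, and KMT2A and KMT2D encode histone H3 lysine methyltransferases. KAT6A had signals of 262.6 with p53 shRNA against 278.7 with control shRNA, and 252.6 with both knockdowns against 251.6 with Pontin siRNA. The control array was the highest and the array with Pontin siRNA alone the lowest, 1.11-fold apart. The p53 shRNA log2 ratios were -0.09 and 0.01, and the Pontin siRNA log2 ratios -0.15 and -0.06. A second bright KAT6A probe set had p53 shRNA ratios of -0.13 and -0.11, then Pontin siRNA ratios of -0.15 and -0.13, below 0 in all pairs. All of these values lay inside the central 95% of bright probe sets. Both remaining KAT6A probe sets were dim, with signals between 5.4 and 20.9.

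KMT2A was level on its brightest probe set, 226981_at, with signals of 266.4 with p53 shRNA against 254.9 with control shRNA and 228.9 with both knockdowns against 239.6 with Pontin siRNA. The p53 shRNA log2 ratios were 0.06 and -0.07, and the Pontin siRNA log2 ratios -0.09 and -0.22. Its other probe sets did not all follow. On 212078_s_at the signals were 117.8 with both knockdowns, 110.6 under p53 shRNA, 119.3 under Pontin siRNA and 61.2 under control shRNA. Here the control array alone stood low, and the other 3 arrays lay within a narrow band.

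The control array was also the lowest on 212079_s_at, at 57.3, 62.2, 62.1 and 43.1, and on 1565436_s_at, at 66.1, 51.4, 50.6 and 32.0, with the arrays listed as before. On 212078_s_at the p53 shRNA log2 ratio was 0.85 in the first pair and -0.02 in the second, and the Pontin siRNA log2 ratio 0.96 and 0.09. On 1565436_s_at the ratios were 0.68 and 0.39 for p53 shRNA and 0.66 and 0.36 for Pontin siRNA, above 0 in every pair but past 1.5-fold only in the pairs that use the control array. The probe sets thus differed in direction: 212076_at, with signals of 67.0 to 85.7, had p53 shRNA ratios of 0.11 and 0.16 but Pontin siRNA ratios of -0.24 and -0.19. On 212080_at and 244110_at all pairs were above 0, by 0.21 to 0.31 with p53 shRNA and by 0.03 to 0.19 with Pontin siRNA. The 6 KMT2A probe sets of the middle range had mean signals between 15.3 and 110.3. For named probe sets of this range, the central 95% of p53 shRNA ratios was -1.03 to 1.02, then -1.02 to 1.20. That of Pontin siRNA ratios was -0.93 to 1.04, then -0.997 to 1.28. All 6 lay inside in every pair. Which transcripts or parts of KMT2A the probe sets read is not given in the sources used here.

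KMT2D stood highest on the array with both knockdowns on 2 of its 3 probe sets above the filter. Its brightest probe set, 227527_at, had signals of 236.0 with p53 shRNA against 239.6 with control shRNA, and 303.3 with both knockdowns against 218.0 with Pontin siRNA. The p53 shRNA log2 ratios were -0.02 and 0.48, and the Pontin siRNA log2 ratios -0.14 and 0.36. The second p53 shRNA ratio lay just outside the central 95% of bright probe sets. The departure from additivity, taken as the second p53 shRNA ratio less the first, was 0.50, against a central 95% of -0.51 to 0.47. It contains that second ratio and the array with both knockdowns, so the values are not independent. The probe set 227528_s_at, with signals of 54.4 with both knockdowns, 52.9 under p53 shRNA, 44.9 under Pontin siRNA and 55.9 under control shRNA, did not have the array with both knockdowns as its highest. The probe set 231974_at was at 52, 19.5, 46.8 and 36.4 in the same order, with the p53 shRNA array lowest. Its p53 shRNA log2 ratios were -0.90 and 0.15, and its Pontin siRNA log2 ratios 0.36 and 1.42. The last of these lay outside the central 95% of middle-range probe sets, which ended at 1.28.

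Among 16 further genes of KMT2 and SET1 complexes above the filter, 0 were called for p53 shRNA and 0 for Pontin siRNA, with median log2 ratios of -0.04 and -0.01. DPY30, a core subunit gene of these complexes, was at 0.15 and 0.03 with p53 shRNA and, with Pontin siRNA, at -0.11 and -0.23. NCOA6, a coactivator gene of the KMT2C and KMT2D complexes, was at -0.05 and -0.03 and at 0.07 and 0.09. SETD1B, a related H3 lysine 4 methyltransferase gene chosen after its values were seen, was at 0.50 and 0.53 with p53 shRNA, short of the threshold in both pairs. Its signals were 480.7 with p53 shRNA against 339.7 with control shRNA, and 466.9 with both knockdowns against 323.3 with Pontin siRNA, so both p53 shRNA arrays lay above both others. Of 6 KAT6 complex genes, 0 were called for either knockdown, and MEAF6, a small subunit gene, was at 0.13 and 0.14 with p53 shRNA. Its Pontin siRNA ratios were -0.06 and -0.05, and the paralog KAT6B was at 0.10 and 0.08 and at -0.20 and -0.23. MEIS1, the only gene measured of a list of HOXA and MEIS targets of KMT2A, was at -0.02 and -0.11 with p53 shRNA and, with Pontin siRNA, at 0.11 and 0.02.

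**Figure D2:**
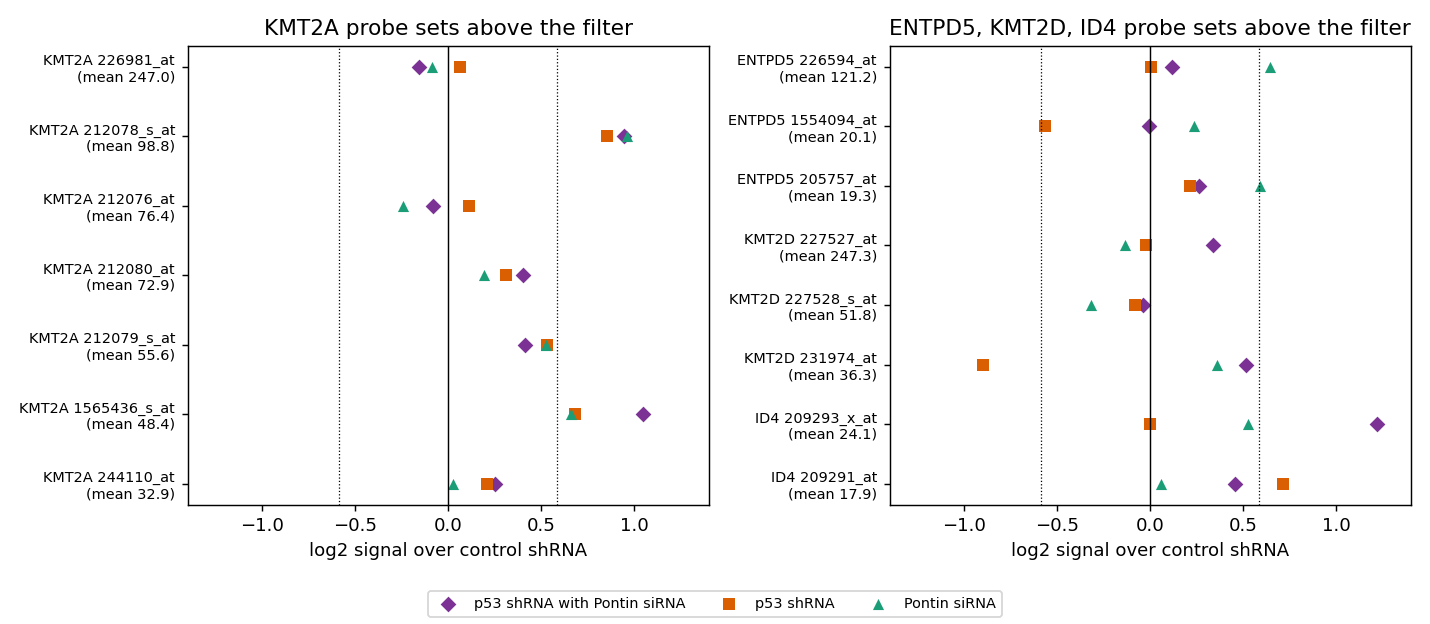
Log2 signal over the control shRNA array for the probe sets above the filter of KMT2A (left) and of ENTPD5, KMT2D and ID4 (right), with the mean signal under each name and dotted lines at 1.5-fold. On 3 KMT2A probe sets, 212078_s_at, 212079_s_at and 1565436_s_at, all 3 knockdown arrays lay 0.41 or more above the control array, while on the brightest, 226981_at, they lay between -0.16 and 0.06. The pair ratios of these 3 lay inside the central 95% of probe sets of the middle range.

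ENTPD5 encodes an endoplasmic reticulum nucleotidase that removes UDP formed during the folding of glycoproteins. It was highest with Pontin siRNA alone. Its brightest probe set, 226594_at, had signals of 166.0 with Pontin siRNA against 106.1 with control shRNA, and 115.1 with both knockdowns against 106.6 with p53 shRNA. The first pair was 1.56-fold apart and the second 1.08-fold, so it was called for neither knockdown. The p53 shRNA log2 ratios were 0.01 and -0.53, and the second of them, like the first Pontin siRNA ratio of 0.65, lay outside the central 95% of bright probe sets. The departure from additivity was -0.54, also outside the range of -0.51 to 0.47. Each of these values outside its range uses the array with Pontin siRNA alone, so they are not independent.

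The array with Pontin siRNA alone was also the highest on both ENTPD5 probe sets of the middle range. On 205757_at the signals were 24.1 with Pontin siRNA against 16 with control shRNA, and 19.2 with both knockdowns against 18.6 with p53 shRNA. On 1554094_at they were 25.1 against 21.3, and 21.2 against 14.4. The Pontin siRNA log2 ratios of these probe sets, 0.05 to 0.59, were above 0 in each pair. The p53 shRNA ratios were 0.22 and -0.33 on 205757_at and -0.56 and -0.24 on 1554094_at. A dim probe set went the other way, at 1.4 with Pontin siRNA against 3.5 with control shRNA, and 11 with both knockdowns against 14.4 with p53 shRNA.

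Of 10 genes that handle folding glycoproteins or their nucleotides beside ENTPD5, 0 were called for either knockdown, and the medians were -0.03 with p53 shRNA and 0.05 with Pontin siRNA. The lectin chaperone gene CANX was between -0.01 and 0.01 in all 4 pairs. The disulfide isomerase gene PDIA3 was at 0.03 and 0.07 with p53 shRNA and, with Pontin siRNA, at -0.04 and -0.002. CMPK1, the UMP-CMP kinase gene and a choice made after its values were seen, had the lowest mean ratio of the list for each knockdown. Its signals were 2115 with p53 shRNA against 2751 with control shRNA and 1533 with both knockdowns against 2003 with Pontin siRNA. The log2 ratios were -0.38 and -0.39 with p53 shRNA and, with Pontin siRNA, -0.46 and -0.46, with a departure from additivity of -0.01. A second bright CMPK1 probe set gave -0.13 and -0.44 and then -0.46 and -0.77.

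ID4, an inhibitor of helix-loop-helix transcription factors that is tied to angiogenic chemokines downstream of mutant p53, was measured only near the filter. Its brightest probe set, 209293_x_at, had signals of 25.6 with Pontin siRNA against 17.8 with control shRNA, and 41.5 with both knockdowns against 17.8 with p53 shRNA. Both Pontin siRNA arrays lay above both others, with log2 ratios of 0.52 and 1.22, the first short of the threshold. The p53 shRNA log2 ratios were 0.00 and 0.70. In the middle range of signals, between 15.3 and 110.3, 95% of probe sets had Pontin siRNA ratios between -0.93 and 1.04 without p53 shRNA and between -0.997 and 1.28 with it, so both ID4 values lay inside. A further ID4 probe set, 209291_at, gave 0.06 and -0.26 with Pontin siRNA and 0.71 and 0.40 with p53 shRNA. The remaining 3 were dim, with signals of 0.4 to 11.9, and are among the calls of dim probe sets given below.

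The related gene ID1 was the only 1 of 139 partner-list genes above the filter called for Pontin siRNA. Of all genes above the filter 2.40% were called, so 1 call does not exceed that background. It had signals of 591.5 with Pontin siRNA against 995.8 with control shRNA, and 694.5 with both knockdowns against 1042 with p53 shRNA. Both Pontin siRNA arrays lay below both others, with fold changes of 1.68 and 1.5, and the p53 shRNA log2 ratios were 0.07 and 0.23. The second pair only just passed the threshold, and the call was lost after quantile and cyclic loess normalization, with a pseudocount of 16 and with a 2-fold threshold. ID1 has 1 probe set here, of a type shared between transcripts. Of 6 ID and E protein genes, ID1 was 1 called lower and 0 were called higher with Pontin siRNA, with a median of 0.01. With p53 shRNA 0 were called. ID3 was at -0.11 and -0.01 with p53 shRNA and, with Pontin siRNA, at 0.03 and 0.14, and ID2 at 0.02 and 0.37 and at -0.05 and 0.30.

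**Figure D3:**
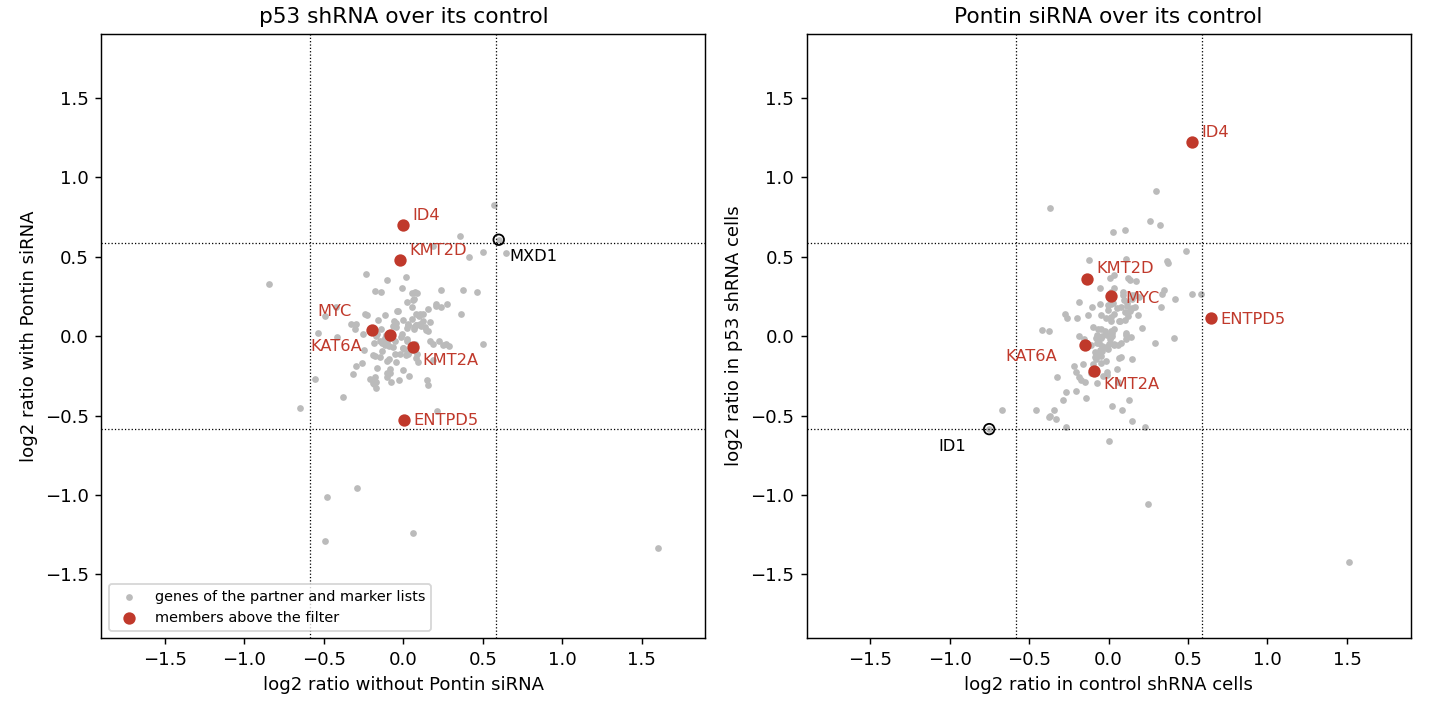
Log2 ratio in one matched pair against the other for p53 shRNA (left) and Pontin siRNA (right), with members above the filter in red, genes of the partner and marker lists in grey and dotted lines at 1.5-fold. No member reaches an outer corner where both pairs pass 1.5-fold in the same direction, whereas MXD1 does for p53 shRNA and ID1 does for Pontin siRNA. Of all genes above the filter, 2.25% do for p53 shRNA and 2.40% for Pontin siRNA.

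TERT, the telomerase reverse transcriptase gene, had signals of 11 with p53 shRNA against 8.0 with control shRNA and 13.9 with both knockdowns against 4.0 with Pontin siRNA on its brighter probe set. The other was at 2.2 against 7.4 and at 11.5 against 5.0. The array with both knockdowns was the highest on each, and the p53 shRNA array was the lowest on the second probe set only. All TERT values lay under the filter. The telomerase assembly and shelterin genes were measured above it, and 0 of 10 were called for either knockdown, with medians of -0.04 and -0.01. NHP2, which encodes an RNA-binding subunit of telomerase, was at -0.07 and 0.06 with p53 shRNA and, with Pontin siRNA, at 0.10 and 0.23, and the telomere-binding gene TERF1 at -0.18 and -0.30 and at 0.06 and -0.06.

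ABCB1, the gene of the drug efflux pump P-glycoprotein, was at 3.7 with p53 shRNA against 6.8 with control shRNA and at 2.9 with both knockdowns against 10.1 with Pontin siRNA on its brighter probe set. Both p53 shRNA arrays lay below both others, but the second probe set was at 6.0 against 5.4 and at 8.6 against 2.0, in the other direction. One more probe set is shared with ABCB4 and was left out. Without the filter ABCB1 was the only member called for p53 shRNA, and 9.64% of all genes were then called. Of 7 other efflux transporter genes above the filter 0 were called for either knockdown. ABCC1, which encodes the transporter MRP1, was at 0.00 and 0.10 with p53 shRNA and, with Pontin siRNA, at 0.08 and 0.18, and ABCC5 was at -0.19 and -0.29 with p53 shRNA.

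AXL, a receptor tyrosine kinase gene of the TAM family tied to invasion, was at 7.9 with p53 shRNA against 6.0 with control shRNA and at 0.8 with both knockdowns against 9.7 with Pontin siRNA. Its other probe set was at 1.8 against 1.3 and at 4.8 against 1.4. The array with both knockdowns was the lowest on one and the highest on the other. The paralog TYRO3 was above the filter, with signals of 181.9 with Pontin siRNA against 140.9 with control shRNA and 189.4 with both knockdowns against 136.7 with p53 shRNA. Both Pontin siRNA arrays lay above both others, at log2 ratios of 0.37 and 0.47, short of the threshold. The ligand gene GAS6 was at 14.4 with both knockdowns, 38.6 under p53 shRNA, 36.3 under Pontin siRNA and 12.7 under control shRNA, and its ratios had opposite signs in the pairs of each knockdown.

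Calls among member probe sets were found only in the dim range. Over the 18 member probe sets above the filter, 0 were called for p53 shRNA and 0 for Pontin siRNA. Among named probe sets 0.558% of bright and 3.99% of middle ones were called for p53 shRNA, and 1.26% and 4.36% for Pontin siRNA. Of the 19 dim member probe sets, 4 were called higher and 2 lower for p53 shRNA, where 13.1% and 8.4% of all dim named probe sets were. For Pontin siRNA 4 of the 19 were called higher and 0 lower, where 14.3% and 7.43% were. Opposite signs past 1.5-fold in both pairs were found on 2 of the 19 for p53 shRNA and on 1 for Pontin siRNA, where 20.9% and 20.5% of all dim named probe sets had them. The higher p53 shRNA calls were KMT2A 229935_s_at, at 9.4 against 1.6 and at 12.9 against 1.2, and the dim ENTPD5 probe set described above. ID4 209292_at and KMT2D 216845_x_at were also called higher. ABCB1 209993_at and ID4 229386_at were called lower. The higher Pontin siRNA calls were ID4 226933_s_at and 209292_at and KMT2D 211790_s_at and 216382_s_at. The array with both knockdowns was the highest on 10 of the 19, where it was the highest for 37.3% of all dim named probe sets and for 24.2% of bright ones. The part of that array's higher low-end signals in these calls was not tested.

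Further genes that the literature lists as raised by mutant p53 were set beside the members. Of 31 above the filter, 0 were called for p53 shRNA, 19 had a mean log2 ratio below 0 and the median was -0.07. Below 0 were also 6097 of all 12066 genes above the filter and 4138 of 7744 bright genes, and 28 of the 31 were bright. The difference from these shares was not tested. With Pontin siRNA 0 were called and the median was -0.04. CDK1, the mitotic kinase gene, was at -0.30 and 0.05 with p53 shRNA and, with Pontin siRNA, at 0.03 and 0.39, and PSMA2, a proteasome subunit gene, at 0.12 and 0.10 and at 0.01 and -0.02. The angiogenic factor gene VEGFA and the chemokine gene CXCL1, chosen after their values were seen, had the mean p53 shRNA ratios farthest from 0. VEGFA had signals of 1244 with p53 shRNA against 837.5 with control shRNA and 1428 with both knockdowns against 805.5 with Pontin siRNA. CXCL1 was at 36.3 against 50.6 and at 27.5 against 55.4. VEGFA was higher in both p53 shRNA arrays than in both others and CXCL1 lower, with log2 ratios of 0.57 and 0.83 and of -0.48 and -1.01. A second bright VEGFA probe set gave 0.33 and 0.22.

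Genes for the partners of mutant p53 at promoters had list medians near 0, though single genes lay farther off. Of 15 cofactor genes above the filter, 0 were called for either knockdown, with medians of -0.05 and -0.05. With p53 shRNA, 11 of the 15 had a mean ratio below 0 and 4 above. ETS2 was at 0.38 and 0.29 with p53 shRNA, SP1 at 0.21 and 0.19 and NFYA at 0.02 and -0.12, while STAT3 was at -0.07 and -0.07 and YAP1 at 0.28 and 0.20. ETS2, SP1 and NFYA are named for the motifs shown above and were chosen after their values were seen. With p53 shRNA, ETS1 was at -0.17 and -0.33, NFYB at -0.005 and -0.21 and NFYC at -0.08 and -0.21. The SREBP genes SREBF1 and SREBF2 were at 0.09 and -0.11 and at 0.21 and -0.47. These were also chosen after their values were seen. Of 4 genes reported as lowered by mutant p53, 0 were called for either knockdown, with TGFBR2, a TGF-beta receptor gene, at 0.17 and -0.03 and the stress factor gene ATF3 at 0.36 and 0.14 with p53 shRNA. The death receptor gene FAS of that list, at log2 ratios of -0.65 and -0.45 with p53 shRNA and, with Pontin siRNA, -0.67 and -0.47, had signals of 12.8 to 27.8 and was chosen after its values were seen.

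**Figure D4:**
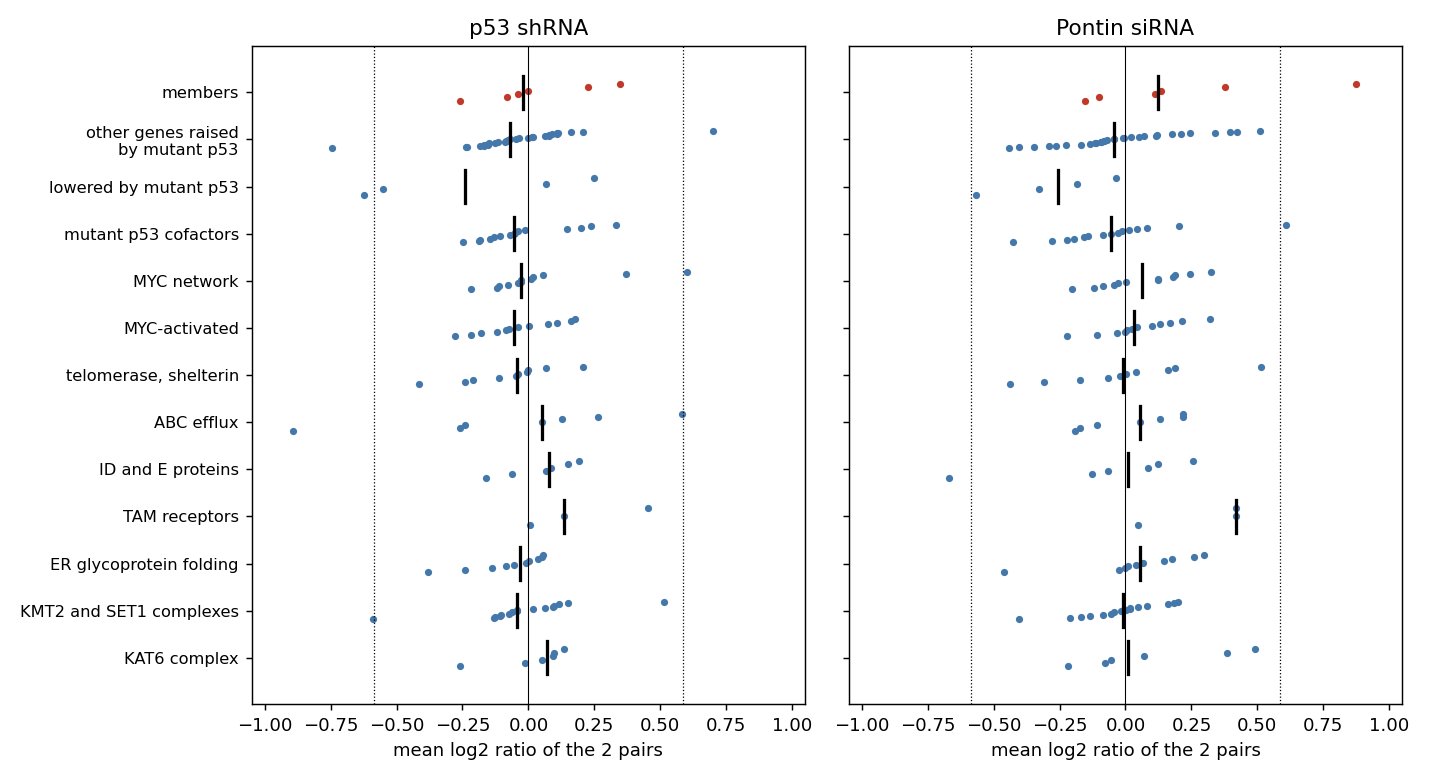
Mean log2 ratio of the 2 matched pairs for members (red) and genes of the partner lists shown (blue) above the filter, with list medians as black bars and dotted lines at 1.5-fold, for p53 shRNA (left) and Pontin siRNA (right). The members' medians are -0.02 and 0.12, and most genes of every list shown lie within 1.5-fold of 0.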

How the data were processed

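RNA of SK-BR-3 cells was measured on 1 array per group. Per the submitters' processing notes the deposited signal intensities come from MAS5, with no version given, and they are linear. Each array's mean without its lowest and highest 2% was 150.0, so the authors had scaled the arrays to a common level. Detection calls, build and annotation are not given in the sources used here.

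Of 54675 probe sets, 41097 carried 1 gene symbol, 1801 several and 11777 none listed. Symbols were updated through Entrez identifiers, which matched for 41043. Signals were taken to log2 without further normalization or pseudocount, with 14 signals of 0 set to 0.1. Percentiles of signal left out 62 control probe sets. Each gene was read on its brightest probe set by mean log2 signal, and 7744 of 12066 genes above the filter were bright. Signals of different probe sets were not compared as levels, and the number of arrays limits precision.

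The members and lists were chosen with earlier results of these data known. Named genes were all members, called genes of each list and its 2 brightest uncalled genes, and others are said to be chosen after their values were seen. No member above the filter was called, so the planned search for its 3 nearest genes gave none. The code for the call rule was checked on simulated arrays. Their ratios were less spread than those here and the planted changes were larger than the threshold, so the check gives no error rate for these data. Alternatives were run with limma 3.58.1 in R 4.3.3 and pandas 2.3.3 in Python 3.11.15. One of the gene lists counted among the partner lists is not reported here.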

Additional observations from a re-analysis of the deposited data

Results flagged for a closer look

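On 3 dim probe sets of members, the 2 pairs of a knockdown were each at least 1.5-fold apart with opposite signs, and the difference between pairs was not tested. For p53 shRNA, the dimmer TERT probe set was at -1.75 and 1.20, a difference of 2.95 in log2, on signals of 2.2 to 11.5. The KAT6A probe set 216361_s_at was at -0.66 and 0.97, a difference of 1.63, on signals of 7.0 to 18.2. For Pontin siRNA, the AXL probe set 202686_s_at was at 0.69 and -3.30, a difference of -3.997, on signals of 0.8 to 9.7. Of all dim named probe sets, 20.9% had opposite signs at this size for p53 shRNA and 20.5% for Pontin siRNA.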

How the results depend on the processing

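The count of members called was 0 for p53 shRNA in every setting run but 2: it was 1 without a filter (ABCB1) and 1 without the control shRNA array (ID4). For Pontin siRNA it was 0 except for 1 with a threshold below 1.5-fold, called the lower threshold here (ID4), 1 without the array with both knockdowns (ENTPD5) and 1 without the control shRNA array (ID4). The setting without the control shRNA array was chosen after seeing the data, and settings that leave out an array rest on a single pair. The median p53 shRNA ratio of members was -0.15 after median centring, 0.13 with the mean over probe sets, over 5 members without ID4, and 0.0212 without the control shRNA array. The median Pontin siRNA ratio was -0.0449 after median centring, -0.10 without probe sets of types s, x and a, over 5 members without MYC, and -0.0359 without the array with both knockdowns. Median centring moved the median of all genes to -0.14 for p53 shRNA and -0.16 for Pontin siRNA. Of 138 values of single members under alternatives, 127 moved by less than the SD of the 2 pairs, and 15 changed sign. Many of the 127 were fixed in advance, so the count does not measure stability. Other thresholds or filters leave a member's ratio as it was, and a single pair always lies within that SD of the mean. No member above the filter was called, so no called value could change sign.

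The share of all genes called for p53 shRNA, 2.25%, was 0.919% with a pseudocount of 16, 9.64% without a filter, 0.633% among bright genes, 0.414% with a 2-fold and 8.35% with the lower threshold, 8.80% without the array with both knockdowns and 9.77% without the control shRNA array. For Pontin siRNA, 2.40%, the values in the same order were 1.14%, 9.71%, 1.28%, 0.240%, 9.77%, 8.14% and 11.8%. Higher calls were 61.6% of the p53 shRNA calls, 48.3% after quantile, 49.0% after cyclic loess and 34.6% after median centring, and 48.3%, 28.5%, 29.1% and 18.3% of the Pontin siRNA calls. The cause was not tested.

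Of 139 partner-list genes above the filter, 1 was called for each knockdown. For p53 shRNA the count was 2 after quantile and cyclic loess normalization and without a filter, 0 with a pseudocount of 16 and with a 2-fold threshold, 9 with the lower threshold, 5 without the array with both knockdowns and 7 without the control shRNA array. For Pontin siRNA it was 2 after median centring, with the mean over probe sets and without a filter, 0 with a pseudocount of 16, without probe sets of types s, x and a and with a 2-fold threshold, 11 with the lower threshold, 3 without the array with both knockdowns and 10 without the control shRNA array. FAS in place of ID1 was the gene called for Pontin siRNA after quantile and cyclic loess normalization. A limma additive fit with Benjamini-Hochberg adjustment called 0 genes for either knockdown, 0% of all and 0 of the partner lists, where 1390 and 1737 genes had an unadjusted p under 0.05. The members' adjusted p in that fit, which has 1 residual degree of freedom, was 0.575 to 0.997 for p53 shRNA and 0.338 to 0.760 for Pontin siRNA. The matched pairs and this fit take the other knockdown as a block, and no block by replicate number could be added because the labels give no such numbers.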

Other observations

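TK1, the thymidine kinase gene among the genes reported as raised by mutant p53, stood higher with Pontin siRNA without reaching the call. Its signals were 2684 with Pontin siRNA against 1914 with control shRNA, and 2455 with both knockdowns against 1695 with p53 shRNA. Both Pontin siRNA arrays lay above both others, with log2 ratios of 0.49 and 0.53, and a second bright TK1 probe set gave 0.33 and 0.47. The p53 shRNA ratios were -0.18 and -0.13 on the first probe set. MERTK, the third TAM receptor gene, had signals of 12.4 to 22.7 and was between 0.38 and 0.50 in all 4 pairs. Both genes were chosen after their values were seen.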
